A study of Mus musculus with 3 samples.

Results

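Classical monocytes are the Ly6C-high circulating monocytes of the mouse, released from bone marrow and drawn into inflamed tissue through the chemokine receptor CCR2. In tissue they lose their blood programme as they turn into macrophages or dendritic-like cells, and in the blood they can turn into the patrolling, Ly6C-low nonclassical monocytes. The 9 genes described here were taken as a named list for that programme out of 19039 genes in 3 RNA matrices: Ly6c2, Plac8, Chil3, Fn1, Vcan, F13a1, S100a4, Ly6i and Hpgd. All 9 were present in all 3 matrices, which share 16267 genes.

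The study asked how brain-resident myeloid cells shape immunity in brain metastases, and it removed microglia with diphtheria toxin. The mice were 2 to 3 months old, female and C57Bl/6. Depleted mice were Cx3cr1CreERT-ROSA-iDTR and control mice Cx3cr1CreERT, so both carried a tamoxifen-switched Cre under the promoter of Cx3cr1, a receptor gene of microglia and monocytes, and only depleted mice carried the Cre-dependent toxin receptor. Both genotypes received tamoxifen, a pause of a month, and diphtheria toxin. E0771 mammary tumour cells, put into the carotid artery about 2 weeks earlier, gave the metastases, and naive mice received none. A brain sample was 1 hemisphere enriched for immune cells on Percoll, and the submitters state that microglia remain in depleted samples.

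All 8 samples were hashed, pooled and read in 1 droplet run by CITE-seq, which counts RNA and antibody tags in the same cells. The annotation gives the arm for 1868 cells labelled depleted and 785 labelled control in the naive brain, and for 1553 and 1371 cells in the blood of mice with metastases. The microglia cluster of the naive brain held 686 of the depleted-labelled and 134 of the control-labelled cells. The depleted label thus did not go with fewer microglia there, and the reason was not tested. The 5933 cells of the brain with metastases form 1 pooled sample, because the tables used here give no arm for them. Each arm of a tissue is thus 1 hashed sample, so no difference below has a replicate check, no test was made and no p-value is given. In a sum over a cluster alone, fewer expressing cells and less RNA per cell cannot be told apart. Shares of expressing cells are given for some groups.

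Some droplets were listed in more than 1 matrix. They were 773 of the 2653 droplets of the naive brain, 833 of 2924 of the blood and 1012 of 5933 of the brain with metastases. The 339 barcodes listed in both the naive brain and the blood had equal raw RNA counts in both, so they are the same droplets under 2 sample names. Matches with the brain with metastases rest on the barcode alone, because the tables used here give no raw counts per cell for it. Values below are given with and without shared droplets where they bear on a result. Levels are corrected unique molecular identifiers (UMIs) summed over a group of cells and scaled to 10000, written CP10k. Genes under 0.5 CP10k on both sides of a comparison are called not measured. Ratios are log2 with 0.1 CP10k added to both sides, which understates changes of low genes. A difference of 2 fold or more is counted as a description.

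Surface protein gave another reading of these cells, apart from the RNAs. The authors' Ly6CHigh and Ly6CLow gates rest on antibodies whose tags were counted in the same droplets, with another class positive for both Ly6C and Ly6G. The tags of the 3 antibodies behind the gates are shown because they mark cells by protein and not by RNA. Each is written 5′ to 3′.
Ly6C antibody tag: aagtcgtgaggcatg
CD11b antibody tag: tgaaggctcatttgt
Ly6G antibody tag: acattgacgcaacta

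Ly6c2, at 15:75108161-75112066 in GRCm38.p6, encodes the Ly6C surface protein, and Ly6i lies on the same chromosome at 74979534-74983434, in the Ly6 gene family that also holds Ly6c1 and Ly6a. F13a1 and Chil3 varied together over the authors' clusters by arm (Pearson correlation 0.83), while Hpgd was also high in microglia. The promoter windows of F13a1, Chil3 and Hpgd are shown, each with its first listed start at the 5′ end of the gene. Each is the 250 bases before the start of the gene, from RefSeq on GRCm38.p6, written 5′ to 3′ on the strand of the gene, with capitals for the letters GAGGAA on either strand (TTCCTC on the other), the core bound by the myeloid factor PU.1.
F13a1, chr13:37050245-37050494, minus strand: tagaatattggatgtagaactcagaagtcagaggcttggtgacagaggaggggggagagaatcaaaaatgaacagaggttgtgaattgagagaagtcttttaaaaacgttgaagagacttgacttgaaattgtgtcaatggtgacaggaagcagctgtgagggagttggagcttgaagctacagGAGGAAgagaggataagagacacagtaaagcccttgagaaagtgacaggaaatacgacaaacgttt
Chil3, chr3:106167565-106167814, minus strand: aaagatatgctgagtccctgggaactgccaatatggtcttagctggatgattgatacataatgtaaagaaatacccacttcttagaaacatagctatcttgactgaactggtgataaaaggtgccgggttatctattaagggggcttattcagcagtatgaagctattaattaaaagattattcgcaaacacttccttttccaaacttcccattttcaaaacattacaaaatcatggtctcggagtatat
Hpgd, chr8:56294302-56294551, plus strand: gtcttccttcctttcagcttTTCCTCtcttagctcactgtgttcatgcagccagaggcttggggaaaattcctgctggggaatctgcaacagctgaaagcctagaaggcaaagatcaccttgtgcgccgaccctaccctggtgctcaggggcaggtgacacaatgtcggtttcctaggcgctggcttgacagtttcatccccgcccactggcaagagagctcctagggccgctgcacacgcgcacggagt
The letters GAGGAA stood in the windows of 4 of the 7 members with a listed promoter (Ly6c2, Plac8, F13a1 and Hpgd) and in 23.1% of all 27025 windows. In F13a1 they began 66 bases before the start and in Hpgd 230 bases before it. Both strands of the window at the first listed start of each gene were searched,. The C/EBP letters TTGCNNAA stood in none of the 7 windows, against 9.55% of all windows, and the TATA box letters TATAAA in that of S100a4, against 3504 of the 27025 windows. Fn1 and Ly6i have no entry in the promoter table.

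**Figure D1:**
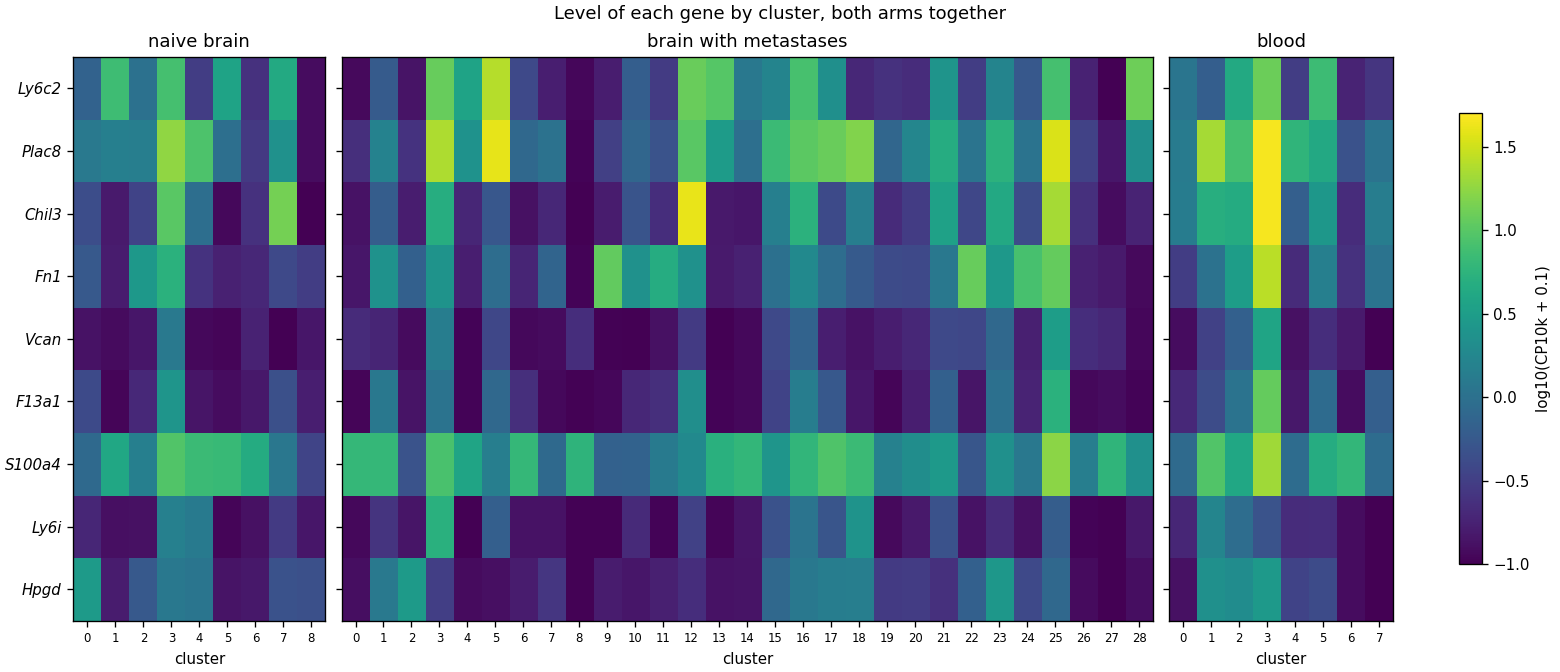
Level of each of the 9 genes (rows) in every cluster (columns), in 1 panel each for naive brain, brain with metastases and blood, as log10(CP10k + 0.1), with both arms together. Blood cluster 3 is bright for every gene but Ly6i, and the brightest cluster for Ly6i is cluster 3 of the brain with metastases, at 5.09 CP10k.

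The blood reference was blood cluster 3, 355 cells led by F13a1, Fn1, Chil3, Ccr2 and Vcan and high in 6 of 12 classical monocyte markers that are no members. The authors clustered on these genes, so their level there is a description. Across both arms it held 46.3 CP10k of Chil3, 45.7 of Plac8, 26.4 of Fn1, 20.5 of S100a4, 12.3 of Ly6c2, 11.3 of F13a1, 3.71 of Vcan, 2.73 of Hpgd and 0.389 of Ly6i. It took 82.6% of all F13a1 molecules of the blood matrix, 79.8% of Fn1, 75.2% of Vcan and 74.1% of Chil3. Ly6i did not follow, since the nonclassical monocytes of blood cluster 1 held 49.5% of its molecules and cluster 3 held 10.5%. The list is therefore not uniform in the blood: with both arms together 8 genes were highest in the classical cluster, and Ly6i was highest in the nonclassical one, at 1.57 CP10k with the depleted label and 1.64 with the control label. Hpgd was close between them, and with the control label it was higher in the nonclassical cluster, at 2.74 CP10k, than in the classical one, at 1.85.

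The share of cells with at least 1 UMI was high for Fn1 and low for Ly6i. Fn1 was seen in 91.3% of depleted-labelled cells of blood cluster 3 (exact Clopper-Pearson 95% interval 86.4 to 94.8%) and in 92.5% of control-labelled cells (87.3 to 96.1%). In blood B cells, which should lack it, Fn1 was seen in 4.95% of depleted-labelled and 3.38% of control-labelled cells, at median raw depths of 4884 and 3917.5 UMIs against 11796 and 11541.5 UMIs in cluster 3. Ly6i was seen in 15.4% of depleted-labelled (10.6 to 21.2%) and in 32 of 160 control-labelled cells of cluster 3 (14.1 to 27.0%). Intervals cover counting error only. Thinning every cell to 2000 UMIs gave 89.7% and 83.1% for Fn1 and 3.59% and 6.88% for Ly6i in cluster 3, and 3.96% and 0.676% for Fn1 in B cells.

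Several of these genes are also high in cells that are not monocytes. Ly6c2 reached 7.15 CP10k in depleted-labelled and 7.55 in control-labelled T cells of the naive brain, and that cluster held 44.4% of all Ly6c2 molecules of the matrix. In the brain with metastases Ly6c2 was at 12.7 CP10k in cluster 28, which was high in 6 T cell and 4 NK cell markers. It was at 9.60 CP10k in the CD8 T cell cluster 13. Chil3, which encodes the secreted chitinase-like protein Ym1, stood at 40.7 CP10k in 102 neutrophil-like cells of metastatic brain cluster 12, which also lead with the granule genes Camp, Ngp, Elane and Mpo of immature neutrophils. Fn1, the matrix protein fibronectin, was at 11.8 CP10k in fibroblasts (cluster 22) and at 11.3 and 8.18 CP10k in clusters 9 and 24 of vessel cells.

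Hpgd, which encodes the enzyme that degrades prostaglandins, was highest in microglia in both brains, with both arms together. It had 2.88 CP10k in depleted-labelled and 2.83 in control-labelled microglia of the naive brain, and 2.84 CP10k in those of the brain with metastases. The naive brain microglia held 75.6% of all Hpgd molecules of their matrix. Vcan and F13a1, which encode the proteoglycan versican and the A subunit of coagulation factor XIII, were the most restricted genes of the naive brain, where cluster 3 held 82.1% of Vcan and 67.0% of F13a1 molecules.

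A small cluster of the brain with metastases (cluster 5, 27 cells led by Ly6d, Cox6a2 and Ccr9) had the highest Ly6c2 and Plac8 levels of that matrix, 25.2 and 39.3 CP10k, with Chil3 at 0.44 and Vcan at 0.28 CP10k. It stayed unnamed, because it rests on no fixed marker list.

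Naive brain cluster 3 is the monocyte cluster of the naive brain, 283 cells high in 11 of 12 classical monocyte markers, 8 of 12 dendritic markers and 5 of 13 macrophage markers, with Cxcl9, Fabp5, Ms4a4c and Cd209a leading. Of its droplets 62.2% were also listed elsewhere, 137 of them in the brain with metastases. There 50 fell in cluster 3, 33 in cluster 16, 21 in the dendritic-like cluster 17 and 10 each in clusters 23 and 25. Cluster 16 was high in 7 T cell, 5 NK cell, 4 classical monocyte and 4 macrophage markers. Cluster 23 was high in 13 microglia, 8 neutrophil, 6 classical monocyte, 6 macrophage and 4 red cell markers. Median hashtag counts were 1132 in depleted-labelled and 63 in control-labelled cells of naive brain cluster 3, and median raw UMIs 21847.5 and 31224. The arm label thus rests on few hashtag counts in many control-labelled cells.

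In that cluster most of the genes were lower than in blood classical monocytes, under both arm labels. With the depleted label 7 of 9 members were lower by 2 fold or more, against 6.81% of all measured genes, and 1 was higher, against 10.8%. With the control label 7 were lower, against 7.13% of genes, and 1 higher, against 12.6%. The median of the 9 log2 ratios was -1.23 with the depleted label and -1.33 with the control label, and that of all measured genes -0.10 and -0.18. All 9 were measured in both. Among the lower genes, Fn1, F13a1 and Chil3 had the largest differences with the depleted label, and Chil3, F13a1 and Plac8 with the control label. Ly6c2 missed 2 fold under both labels, though it stood at -1.27 with the depleted label once shared droplets were left out.

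Fn1 had 3.75 CP10k in depleted-labelled brain cells, against 32.6 in depleted-labelled blood cells, a log2 ratio of -3.09. With the control label it had 7.44 CP10k in brain and 18.9 in blood (-1.33). Fn1 was thus lower in brain under both labels.

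F13a1 had 1.90 CP10k in brain and 12 in blood with the depleted label (-2.60), and 3.33 and 10.5 with the control label (-1.63). Chil3 had 10.2 and 56.2 CP10k with the depleted label (-2.45), and 9.99 and 34.3 with the control label (-1.77). The 2 brain values of Chil3 lay close together, and its 2 blood values did not.

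Vcan had 0.939 CP10k in brain and 3.93 in blood with the depleted label (-1.96), and 1.43 and 3.43 with the control label (-1.21). Plac8, a small cysteine-rich protein of myeloid and lymphoid cells, had 15.3 and 32.4 CP10k with the depleted label (-1.08) and 21.3 and 61.7 with the control label (-1.53). S100a4, a calcium-binding protein of motile cells, had 9.06 and 21.3 CP10k with the depleted label (-1.23) and 9.36 and 19.6 with the control label (-1.06).

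Hpgd had 1.43 CP10k in brain and 3.46 in blood with the depleted label (-1.22), and 0.614 and 1.85 with the control label (-1.45). Ly6c2 had 6.47 and 10.7 CP10k with the depleted label (-0.72), and 9.89 and 14.2 with the control label (-0.52). Ly6i ran the other way, with 1.02 CP10k in brain and 0.324 in blood with the depleted label (1.41), and 1.95 and 0.466 with the control label (1.86).

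The higher Ly6i in the naive brain rested largely on droplets that are also listed elsewhere. Without them Ly6i had 0.593 CP10k in brain and 0.314 in blood with the depleted label (0.74), and 0.651 and 0.525 with the control label (0.26), so neither passed 2 fold. Of the lower genes, Fn1 stood at -3.37 with the depleted label and -1.95 with the control label, F13a1 at -2.70 and -1.86, and Chil3 at -2.55 and -1.59. The comparison crosses 2 matrices corrected separately and sets naive brain against blood of mice with metastases, so tissue and disease state cannot be told apart. As mean UMIs per cell, with no scaling to depth, 4 members were lower by 2 fold or more with the depleted label and 0 with the control label, and the medians were -0.44 and -0.52.

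**Figure D2:**
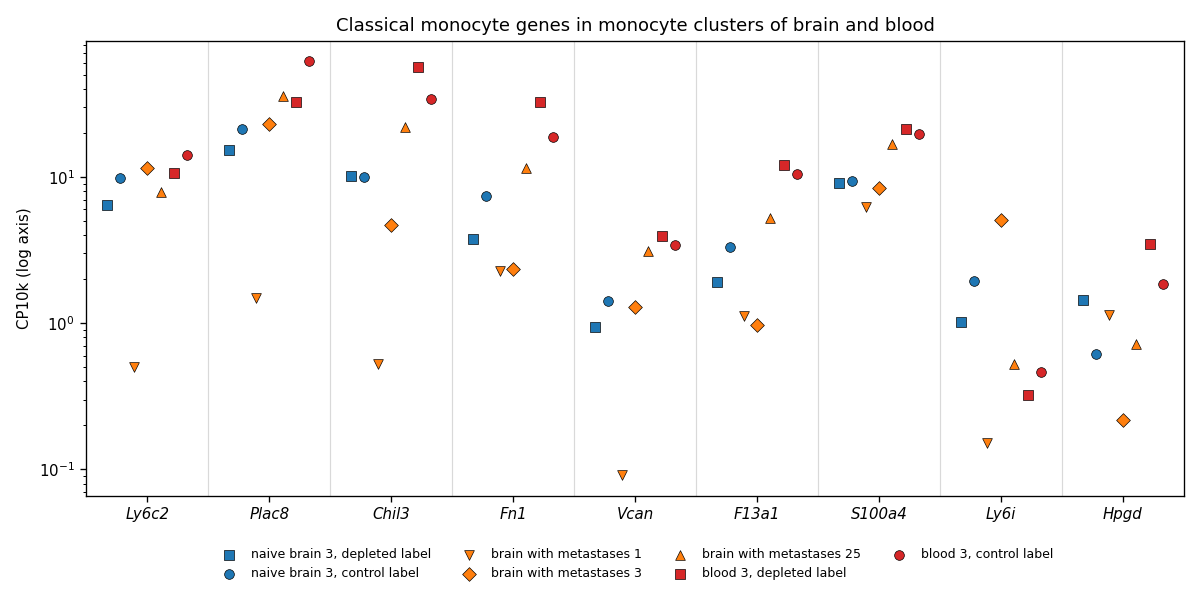
CP10k (log axis) of each gene in the monocyte clusters of the naive brain (blue), of the brain with metastases (orange) and of the blood (red), 1 point per group. The red points lie above the blue ones for every gene but Ly6i, and metastatic brain cluster 1 (downward triangles) is the lowest for every gene but F13a1 and Hpgd.

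Markers of other cells were also higher in the naive brain cluster. Of the 13 macrophage markers 9 were higher by 2 fold or more with the depleted label and 10 with the control label, of the 12 dendritic markers 8 and 6, of the 13 microglia markers 8 and 9, and of the 9 T cell markers 7 and 6. No marker of these lists was at 0 in the brain cluster. With the depleted label the 13 macrophage markers summed to 110 CP10k in brain and 38.7 in blood, the 12 dendritic markers to 315 and 54.8, the 13 microglia markers to 26.0 and 4.21 and the 9 T cell markers to 8.24 and 0.167. With the control label the sums were 150 and 24.2 for macrophage, 161 and 57.1 for dendritic, 21.4 and 2.34 for microglia and 6.24 and 0.466 for T cell markers. Their part in the lower member levels was not tested. Of the 12 classical markers that are no members, 8 were lower by 2 fold or more with the depleted label and 6 with the control label, among them Ccr2, at 5.96 and 17.1 CP10k with the depleted label and 5.35 and 18.3 with the control label. Thbs1 and Cd14 were higher under both labels.

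The Ly6C surface gate divided naive brain cluster 3 far more sharply than blood cluster 3. In brain, 75 cells gated Ly6CHigh had 23.3 CP10k of Chil3, against 0.10 in 60 cells gated Ly6CLow, and 13.4 against 0.43 CP10k of Ly6c2. Fn1 had 10.0 and 0.33 CP10k, F13a1 5.44 and 0.23, and Vcan 2.11 and 0.05. Plac8 had 32.9 and 5.10 CP10k. The number of cells with a UMI differed too. Chil3 was seen in 59 of the 75 Ly6CHigh and 4 of the 60 Ly6CLow cells, Fn1 in 57 and 7, and Vcan in 47 and 2. Hpgd went the other way, in 20 and 28 cells. The other members differed less across the gate, with 13.02 and 8.59 CP10k of S100a4, 1.85 and 0.88 of Ly6i, and 0.98 and 1.44 of Hpgd. With the control label alone Ly6i was lower in Ly6CHigh cells, at 2.55 against 3.13 CP10k, and Hpgd was higher, at 0.615 against 0.373. The control-labelled Ly6CLow cells were only 13, with Ly6i seen in 2 of them and Hpgd in 1, so these 2 directions rest on very few droplets. In blood cluster 3 no member differed by 2 fold across the gate under either label. With both labels together Ly6c2 had 16.9 CP10k in 125 Ly6CHigh and 9.19 in 191 Ly6CLow cells, F13a1 14.3 and 9.82, Fn1 30.7 and 23.9, Chil3 53.2 and 43.0, Plac8 48.8 and 44.3, and Vcan 4.28 and 3.54. The control label alone gave 24.8 and 13.4 CP10k of Fn1 and 13.8 and 7.52 of F13a1. More cells of the blood classical cluster were thus gated Ly6CLow than Ly6CHigh, and those cells still carried the RNA programme.

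Among cells gated Ly6CHigh in both tissues, Ly6c2 and Plac8 were close between brain and blood with the depleted label. They were less so with the control label, at -0.67 and -0.80. With the depleted label (42 brain and 57 blood cells) Ly6c2 had 14.6 CP10k in brain and 14.7 in blood and Plac8 31.7 and 35.6, while Fn1 had 9.33 and 37.7, F13a1 4.89 and 14.8, and Chil3 28.2 and 65.3. With the control label (33 and 68 cells) Ly6c2 had 11.8 and 18.8 CP10k, Plac8 34.4 and 60.0, Fn1 10.8 and 24.8, F13a1 6.12 and 13.8, and Chil3 17.1 and 42.9. With the depleted label 5 of 9 members were lower by 2 fold or more, against 8.1% of measured genes, and 1, Ly6i, was higher, against 10.7%. With the control label 5 were lower, against 7.73%, and Ly6i was higher, against 11.5%. The medians were -1.003 and -1.008. Without shared droplets only 9 depleted-labelled and 11 control-labelled brain cells remained, with 2 and 3 measured members lower and medians of -0.50 and -0.95. Ly6c2 then stood at 0.64 with the depleted label and -0.63 with the control label. Ly6i stood at 2.78 with the depleted label and was not measured with the control label.

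**Figure D3:**
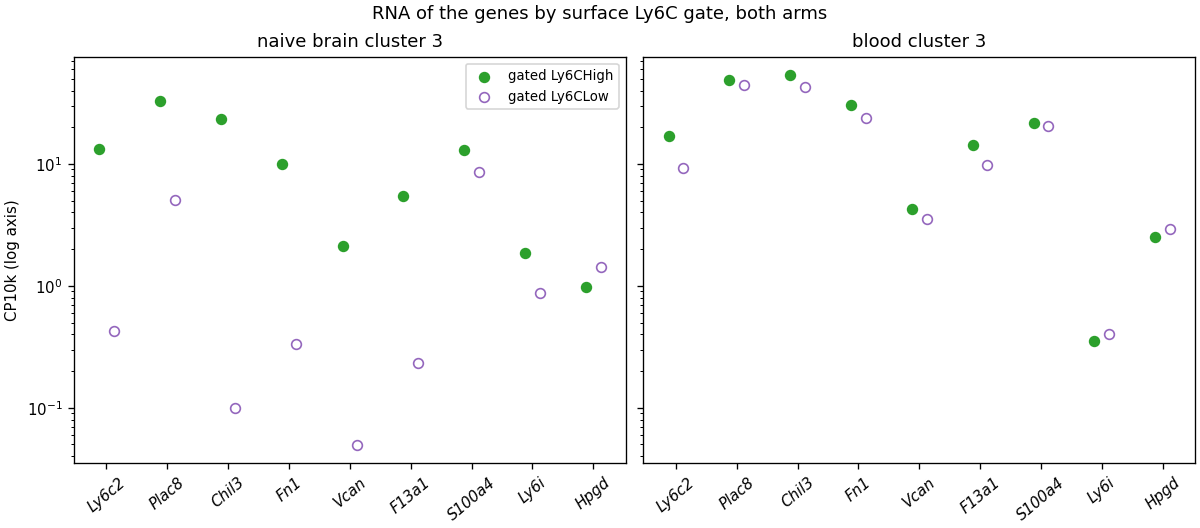
CP10k (log axis) of each gene in cells gated Ly6CHigh (filled) and Ly6CLow (open) by antibody tags, within cluster 3 of the naive brain (left) and cluster 3 of the blood (right), both arms together. In the naive brain Chil3 stood at 23.3 and 0.10 CP10k, and in the blood at 53.2 and 43.0 CP10k.

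Set against blood classical monocytes were 3 clusters of the brain with metastases, built here with the 9 genes left out of the clustering, so that their levels did not choose the cells. Cluster 25 (160 cells, high in all 12 classical markers, led by Thbs1, F13a1, Chil3, Vcan and Lyz2) was classical monocyte-like. Cluster 3 (509 cells, led by Cxcl9) had 7 classical and 7 macrophage markers and stays unnamed. Cluster 1 (166 cells, led by Pf4, Spp1, Mrc1 and Apoe) was macrophage-like, with 11 of 13 macrophage markers. Ly6i is the second leading gene of cluster 3.

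The 3 clusters stood apart in how much of the programme they carried. Of 9 members, the median cell thinned to 2000 UMIs had 5 in cluster 25, 3 in cluster 3 and 1 in cluster 1, against 6 in blood cluster 3 under both labels. Cells with at least 5 members made up 60.6% of cluster 25, 22.8% of cluster 3 and 0.602% of cluster 1, against 86.2% of depleted-labelled and 84.4% of control-labelled cells of blood cluster 3. Unthinned, these shares were 93.1%, 57.6% and 15.1% in the 3 brain clusters, against 91.3% and 94.4% in the blood. Naive brain cluster 3 had 23.8% with the depleted label and 36.9% with the control label after thinning.

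Cluster 25 was the nearest to the blood. Set against blood cluster 3, 4 of 9 members were lower by 2 fold or more (4.6% of measured genes were) and none was higher (7.68% were), with a median of -0.63. Hpgd had 0.724 CP10k in cluster 25 and 2.73 in blood (-1.78), Fn1 11.5 and 26.4 (-1.19), F13a1 5.25 and 11.3 (-1.10), and Chil3 21.8 and 46.3 (-1.08). Vcan, with 3.09 and 3.71 CP10k, S100a4, with 16.9 and 20.5, and Plac8, with 35.5 and 45.7, were each within 2 fold. Ly6c2 had 7.90 and 12.3 CP10k (-0.63), and Ly6i 0.528 and 0.389 (0.36). Taken as mean UMIs per cell, with no scaling to depth, Fn1, F13a1 and Chil3 were no lower in cluster 25 than in the blood, at 0.03, 0.11 and 0.14. Against control-labelled blood alone 1 member was lower by 2 fold or more, and with ratios centred on the median gene 2 were. The matrices differ in median corrected depth, with 13647 UMIs per cell for the brain with metastases, against 5118 for the blood.

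Cluster 3 had Ly6c2 near its blood level and Ly6i above it, while Fn1, F13a1, Chil3 and Hpgd were low. Against blood cluster 3, 6 of 9 members were lower by 2 fold or more (13.3% of measured genes were) and 1 was higher (14.9% were), with a median of -1.45. Ly6i had 5.09 CP10k in cluster 3 and 0.389 in blood (3.41), and 5.51 and 0.406 without shared droplets (3.47). Ly6c2 had 11.6 and 12.3 CP10k (-0.08), close to level. Fn1 had 2.36 and 26.4 CP10k (-3.43), F13a1 0.975 and 11.3 (-3.41), Chil3 4.70 and 46.3 (-3.27), and Hpgd 0.218 and 2.73 (-3.16). Vcan had 1.29 and 3.71 CP10k (-1.45), S100a4 8.36 and 20.5 (-1.29), and Plac8 23.1 and 45.7 (-0.98).

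The same split stood within the brain matrix, where no second normalization enters. Cluster 3 against cluster 25 had 6 members lower by 2 fold or more, against 3.04% of measured genes, and 1 higher, against 9.9%, with a median of -1.19. Ly6i had 5.09 CP10k in cluster 3 and 0.528 in cluster 25 (3.05). F13a1 had 0.975 and 5.25 CP10k (-2.31), Fn1 2.36 and 11.5 (-2.24), and Chil3 4.70 and 21.8 (-2.19). Ly6c2 had 11.6 and 7.90 CP10k (0.55).

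Cluster 1 had most of the programme far below its blood level, and of the measured genes Hpgd and S100a4 differed least. Fn1 had 2.28 CP10k in cluster 1 and 26.4 in blood (-3.48), and F13a1 1.12 and 11.3 (-3.23). Against blood cluster 3, 8 members were lower by 2 fold or more (13.9% of measured genes were) and none was higher (11.9% were), with a median of -3.48 and 8 of 9 measured. Chil3 had 0.527 CP10k in cluster 1 and 46.3 in blood (-6.21), Plac8 1.48 and 45.7 (-4.86), Ly6c2 0.501 and 12.3 (-4.37), and Vcan 0.0915 and 3.71 (-4.31). S100a4 had 6.19 and 20.5 CP10k (-1.71), the smallest difference of a measured gene after that of Hpgd, with 1.14 and 2.73 (-1.20). Against cluster 25, 8 members were lower by 2 fold or more, against 9.75% of genes, and none higher, against 9.82%, with a median of -2.29. Hpgd had 1.14 CP10k in cluster 1 and 0.724 in cluster 25 (0.59), the only member not lower.

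Markers of other cells also differed across these clusters. The 13 macrophage markers summed to 506 CP10k in cluster 1, 136 in cluster 3 and 33.4 in cluster 25, against 32.1 in blood cluster 3, and the 12 dendritic markers to 129, 233 and 43.2, against 55.9. Microglia markers summed to 30.2, 10.9 and 2.83 CP10k, against 3.36, and the 12 neutrophil markers to 4.17, 26.2 and 3.06, against 11.7. The 4 red cell genes summed to 92.98, 7.996 and 0.173 CP10k, against 0.293. Shared droplets made up 10.8% of cluster 1, 18.1% of cluster 3 and 13.8% of cluster 25, and the medians against the blood without them were -3.57, -1.49 and -0.61. The part of these marker genes in the member levels was not tested.

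Partners of the members differed too. Ly6a, a neighbour of Ly6i in the Ly6 family that interferon raises in many cells, had 0.892 CP10k in cluster 25, 17.8 in cluster 3 and 3.31 in cluster 1, against 0.369 in blood cluster 3. Ly6c1, whose reads could be split from those of Ly6c2 by the authors' counting because the 2 genes are near copies, stayed at 0.03 to 0.12 CP10k in these 4 groups, so Ly6c2 is best read with that uncertainty. Chil3 has a near copy in Chil4, which was not analysed here. Ptgs2, the inducible cyclooxygenase that makes the prostaglandins Hpgd degrades, had 7.65 CP10k in cluster 25, 5.48 in cluster 3 and 1.11 in cluster 1, against 0.225 in blood cluster 3. Ptgs2 was thus higher than in blood in all 3 brain clusters, and Hpgd was lower in all 3. Itga4, an integrin subunit that binds fibronectin, had 2.39, 1.43 and 0.719 CP10k, against 4.34.

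Of the 10 monocyte transcription factors, 9 were measured in each of these comparisons. Nr4a1 had 10.2 CP10k in cluster 25, 3.91 in cluster 3 and 1.97 in cluster 1, against 1.14 in blood cluster 3. Klf4 and Irf8 were within 2 fold of the blood in all 3. Cebpb had 25.3 CP10k in cluster 25, 14.6 in cluster 3 and 5.83 in cluster 1, against 9.95 in blood. It was thus higher than in blood in cluster 3 and lower in cluster 1, in both by less than 2 fold.

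Nonclassical monocytes of the blood carried most of these genes at lower levels than classical ones. Ly6i was higher in them under both labels, and Hpgd with the control label. Brain clusters of nonclassical monocytes were set against blood cluster 1. In the naive brain only the control-labelled sample held enough of them, 148 cells in cluster 4, against 95 control-labelled cells of blood cluster 1. Of the 7 measured members 5 were lower by 2 fold or more (5.12% of genes were) and none was higher (4.85% were), and over all 9 the median was -1.81. With a pseudocount of 1 CP10k, 3 of all 9 members were lower by 2 fold or more in place of 7, and the median was -0.50. Chil3 had 0.347 CP10k in brain and 4.44 in blood (-3.34), Ly6c2 0.162 and 1.04 (-2.13), and Plac8 8.46 and 33.1 (-1.95). S100a4 had 7.22 and 6.77 CP10k (0.09) and Ly6i 1.24 and 1.64 (-0.37). Neutrophils also carry Chil3, and the 12 neutrophil markers summed to 24.9 CP10k in brain and 109 in blood, and 4 red cell genes to 0.185 and 69.4. Their part in the member differences was not tested.

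Metastatic brain cluster 18 (138 nonclassical cells) against blood cluster 1 with both arms had 2 of the 7 measured members lower by 2 fold or more, against 2.77% of genes, and none higher, against 3.04%. Those were Chil3, with 1.33 CP10k in brain and 4.79 in blood (-1.78), and Ly6c2, with 0.0984 and 0.538 (-1.69). Plac8 had 15.4 and 21.7 CP10k (-0.49), and Ly6i 2.36 and 1.59 (0.54). As mean UMIs per cell the direction turned, with no member lower by 2 fold or more, 1 higher and a median of 0.28. With a pseudocount of 1 CP10k, 1 of all 9 members was lower by 2 fold or more in place of 4. The median over all 9 was -0.86, and -1.49 without shared droplets, where Fn1 moved most, to -1.78. Neutrophil markers summed to 5.82 CP10k in brain and 50.8 in blood, and red cell genes to 0.151 and 14.4, and their part was not tested.

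Between the arm labels few of the 9 genes reached 2 fold. In naive brain cluster 3 (172 depleted-labelled and 111 control-labelled cells) no member was lower by 2 fold or more, against 1.35% of measured genes, and 1 was higher, against 0.451%. That was Hpgd, with 1.43 CP10k with the depleted label and 0.614 with the control label (1.10). The median of the 9 was -0.55, against -0.05 for all measured genes. Fn1 had 3.75 and 7.44 CP10k (-0.97), Ly6i 1.02 and 1.95 (-0.87), F13a1 1.90 and 3.33 (-0.78), and Ly6c2 6.47 and 9.89 (-0.60). Chil3 had 10.2 and 9.99 CP10k (0.03) and S100a4 9.06 and 9.36 (-0.05).

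With shared droplets left out (67 depleted-labelled and 40 control-labelled cells) Plac8 had 9.38 and 20.5 CP10k (-1.12), Ly6c2 4.46 and 9.45 (-1.07), Hpgd 1.76 and 0.651 (1.31) and Ly6i 0.593 and 0.651 (-0.12). With only cells that had at least 100 hashtag counts, a setting chosen after seeing the data, Hpgd stood at 0.78 and the median at -0.60. Marker sums moved with the label in this cluster: dendritic markers summed to 315 CP10k with the depleted label and 161 with the control label, neutrophil markers to 25.6 and 69.0, and macrophage markers to 110 and 150. Cd209a had 3.25 and 0.916 CP10k and Mgl2 3.00 and 0.294. Their part in the member differences was not tested.

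Within the Ly6CHigh cells of this cluster, Ly6c2 had 14.6 CP10k with the depleted label and 11.8 with the control label, Vcan 2.22 and 1.96, and Chil3 28.2 and 17.1. Ly6c2 and Vcan were thus lower with the depleted label in the whole cluster and higher among its Ly6CHigh cells. With only cells of at least 100 hashtag counts, the whole-cluster ratio stayed at -0.60 for Ly6c2 but turned to 0.17 for Vcan. Other members had the direction of the whole cluster there, with 9.33 and 10.8 CP10k of Fn1, 4.89 and 6.12 of F13a1, 1.29 and 2.55 of Ly6i, 31.7 and 34.4 of Plac8, 12.6 and 13.5 of S100a4, and 1.26 and 0.615 of Hpgd. Ly6CLow cells were 47 of 172 with the depleted label and 13 of 111 with the control label, and they held 0.32 and 0.82 CP10k of Ly6c2, in the direction of the whole cluster.

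In blood classical monocytes (195 depleted-labelled and 160 control-labelled cells) no member reached 2 fold, against 0.691% of measured genes lower and 0.42% higher. Plac8 had 32.4 CP10k with the depleted label and 61.7 with the control label (-0.93). Chil3 had 56.2 and 34.3 CP10k (0.71), Fn1 32.6 and 18.9 (0.78), and Hpgd 3.46 and 1.85 (0.87). Vcan, F13a1 and S100a4 lay between 0.12 and 0.19, and 8 of 9 were measured, Ly6i being under the minimum at 0.324 and 0.466 CP10k. The median was 0.19, and -0.0061 with the earlier blood annotation. Without shared droplets Hpgd passed 2 fold, at 1.01.

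In blood nonclassical monocytes (386 depleted-labelled and 95 control-labelled cells) 1 member, Ly6c2, was lower by 2 fold or more, against 1.54% of genes, and none was higher, against 0.99%. Ly6c2 had 0.410 CP10k with the depleted label and 1.04 with the control label (-1.16), and this passed 2 fold neither with a pseudocount of 1 CP10k nor with the earlier blood annotation. With that annotation 1 member was higher by 2 fold or more and the median was 0.55, in place of -0.18. Without shared droplets 2 members were lower by 2 fold or more, Ly6c2 (-1.29) and Plac8 (-1.02). Ly6c2 was seen in 8.03% (5.52 to 11.2%) and 18.9% (11.6 to 28.3%) of cells. The share in blood B cells was 2.97% with the depleted label (0.617 to 8.44%) and 6.76% with the control label (3.29 to 12.1%). Plac8 had 18.8 and 33.1 CP10k (-0.81), in the same direction as in the classical cluster. Neutrophil markers summed to 36.2 CP10k with the depleted label and 109 with the control label, and red cell genes to 0.436 and 69.4, and their part was not tested. Ccr2 had 2.09 and 5.21 CP10k. Cx3cr1, whose gene drives the Cre in both genotypes, was higher with the depleted label in all 3 clusters compared, with 1.90 and 0.873 CP10k in naive brain cluster 3, 2.15 and 0.170 in blood cluster 3 and 3.64 and 0.286 in blood cluster 1, so the arms are named here by their labels. Of the 9 genes 7 were measured in this cluster.

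**Figure D4:**
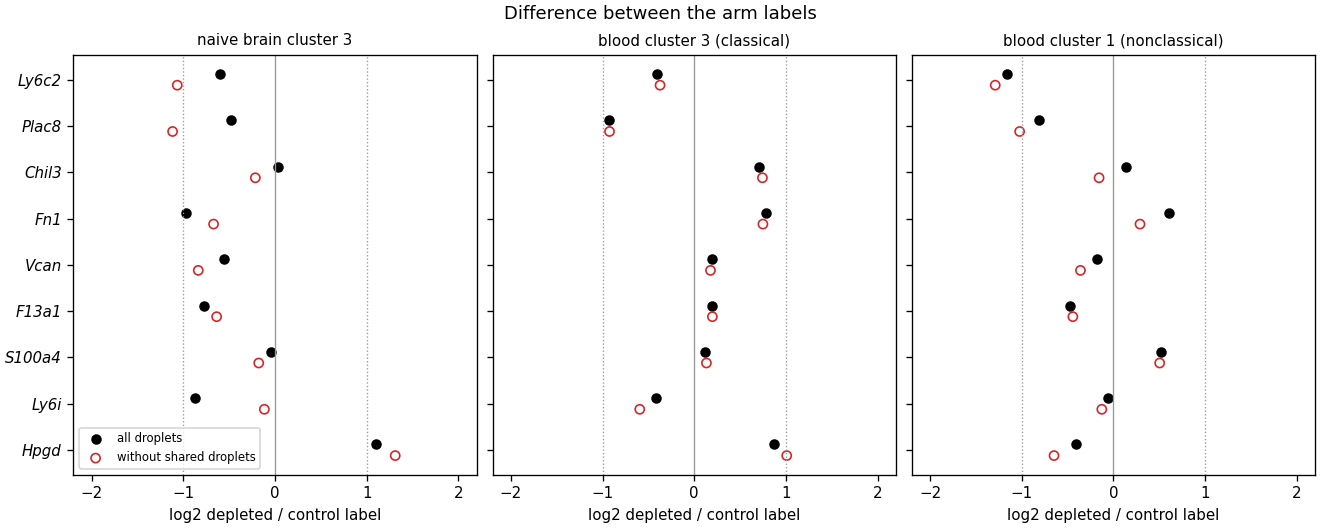
Log2 ratio of CP10k, depleted over control label, of each gene in naive brain cluster 3, blood cluster 3 and blood cluster 1, for all droplets (filled) and without droplets listed in more than 1 matrix (open). Dotted lines mark 2 fold. Hpgd in the naive brain (1.10) and Ly6c2 in blood cluster 1 (-1.16) are the filled points past them.

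The 9 genes varied together to different degrees. Over 29 groups, the authors' clusters by arm with at least 30 cells in the naive brain and blood, the Pearson correlation of log2(CP10k + 0.1) was 0.90 for Fn1 with F13a1, 0.89 for Vcan with F13a1, 0.88 for Fn1 with Vcan and 0.83 for Chil3 with F13a1. It was 0.23 for Hpgd with Ly6c2 and with S100a4, and 0.24 for Ly6i with Ly6c2. These groups share matrices, depth and droplets, so the values are a description.

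Among 7004 other genes, those most like the mean of the 9 over the same groups were Naaa (0.93), Hpse (0.93), Ccl9 (0.92), Ms4a8a (0.92) and Ms4a6c (0.91). Ms4a8a was also the nearest to Vcan (0.95) and to F13a1 (0.91), and Stxbp6 the nearest to Fn1 (0.91). The nearest to Ly6i was Clec4a1 (0.94), to Hpgd Tifa (0.95), to Chil3 C3 (0.90), to Plac8 Rassf4 (0.90), to Ly6c2 Iqgap2 (0.88) and to S100a4 Emp3 (0.88).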

How the data were processed

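CITE-seq was made from 1 pool of 8 hashed samples stained with 35 antibodies. The submitters' processing notes name mm10, Cell Ranger 3.1 and Seurat 3.1.1, with no role given. The authors deposited the natural log of 1 plus a depth-corrected UMI count for each gene and cell, corrected in each matrix separately; undoing the log gave whole numbers in 100% of values within 1e-06. The deposited annotation also gives raw counts of RNA, hashtags and antibodies per cell, arms, clusters and gates. It holds 70 columns not used here. The plan had assumed raw counts, and corrected UMIs were used in their place, so no counting interval is given on levels.

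Median corrected UMIs per cell were 9613 (naive brain), 13647 (brain with metastases) and 5118 (blood). No cell was removed and no doublet caller was run, and shared droplets were marked by barcode. Corrected UMIs were summed, scaled to 10000 and compared as log2 ratios with a pseudocount of 0.1 CP10k. A cluster took a name from at least 3 markers at 2 fold or more over the other cells of its matrix and its 10 leading genes. The brain with metastases was clustered without the 9 genes (scanpy 1.11.5, igraph 0.11.9, 2000 variable genes, 30 components, 20 neighbours, resolution 1.0, 29 clusters). The procedure was tested on simulated data.

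The 9 genes and all lists were chosen with earlier results of these data known. The text names the members, the genes of the lists and the most alike genes by correlation; a few cluster-leading genes are named as such. The 4 comparisons of nonclassical cells and within the brain with metastases were added after seeing the data, as was that of Ly6CHigh cells. Alternatives were shared droplets left out, another pseudocount, no minimum, no scaling, centring, extreme depths left out, gates, the earlier blood annotation, other clusterings and single blood arms. A value counted as moved beyond 0.5 on the log2 scale. A few listed genes are not reported here.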

Additional observations from a re-analysis of the deposited data

Results flagged for a closer look

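Fn1 differed in opposite directions between the arm labels of the 2 tissues. Its log2 ratio of depleted over control label was -0.970 in monocytes of the naive brain and 0.784 in classical monocytes of the blood. Levels were 3.75 CP10k with the depleted label and 7.44 with the control label in brain, and 32.6 and 18.9 CP10k in blood. Without shared droplets the ratios were -0.67 and 0.75. Among the Ly6CHigh cells of these clusters the brain values lay closer together, at 9.33 CP10k with the depleted label and 10.8 with the control label. The blood values there were 37.7 and 24.8 CP10k. Each tissue and arm is 1 hashed sample, so the difference was not tested, and its cause was not tested. Groups of 4 or more samples did not exist, so no sample could be set against its group.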

How the results depend on the processing

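Of 105 medians recomputed under an alternative, 91 kept their sign and stayed within 0.5 of the reported value, and of 945 single-gene ratios 799 stayed within 0.5, 143 moved and 3 reversed. With mean UMIs per cell in place of scaled levels, the medians were -0.44 (naive brain against blood, depleted label), -0.52 (control label), -1.07 (naive brain nonclassical), 0.58 (metastatic brain cluster 25), -0.23 (cluster 3), -2.26 (cluster 1) and 0.28 (cluster 18), and Chil3, Fn1 and F13a1 reversed in cluster 25, at 0.139, 0.0315 and 0.114; by construction this setting keeps the different corrected depths of the matrices. Without shared droplets, the medians were -1.80 for the naive brain with the depleted label and -1.49 for cluster 18. With surface gates in place of clusters the naive brain with the depleted label gave -1.85. A pseudocount of 1 gave -0.50 for naive brain nonclassical cells and -2.54 for cluster 1. With the earlier blood annotation, applied through its gates, the arm difference had medians of -0.0061 in classical and 0.55 in nonclassical cells; the cause was not tested. Counts of members past 2 fold moved in 28 of 210 cases. Unscaled, the members lower were 4 in place of 7 in the naive brain with the depleted label, 0 in place of 7 with the control label, 0 in place of 4 in cluster 25 (1 higher in place of 0), 0 in place of 4 in cluster 18 (1 higher in place of 0), and those higher in cluster 3 were 2 in place of 1. In cluster 25, centring on the median gene gave 2 in place of 4, and the control blood alone 1. A pseudocount of 1 gave 4 in place of 7 lower in the naive brain with the control label, 3 in place of 7 in naive brain nonclassical cells, 1 in place of 4 in cluster 18 and 3 in place of 6 in cluster 3 against cluster 25. Without shared droplets, 2 in place of 0 were lower between the arms in the naive brain, 2 in place of 1 in blood nonclassical cells, and 1 in place of 0 was higher in blood classical cells. The single higher or lower members (Ly6i in the naive brain, Hpgd and Ly6c2 between arms) were lost with a pseudocount of 1 except Ly6i with the control label, and Hpgd also with surface gates, where 1 member was lower, and Ly6i with the depleted label too. With the earlier annotation, 0 in place of 1 were lower and 1 in place of 0 was higher in blood nonclassical cells. Clustering with the members gave 1 in place of 0 higher in cluster 1 against cluster 25. At resolution 0.5, clusters 25 and 1 had no class of their own and gave no value. Of 36 shares of cells, 29 moved out of their interval on thinning to 2000 UMIs. No paired analysis was possible because each arm and tissue holds 1 hashed sample. Depth limits the genes that fell under 0.5 CP10k on both sides of a comparison, which were Vcan, F13a1 and Ly6i.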
